A study of Mus musculus with 6 samples.

Results

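The genes described here encode 10 subunits of the SWI/SNF chromatin remodelling complexes, Smarca2, Smarca4, Arid1a, Arid1b, Arid2, Pbrm1, Smarcb1, Smarcc1, Smarcd2 and Smarce1. They were found by name among the probe sets that the platform's annotation ties to exactly 1 gene symbol, and all 10 were measured, out of 20059 genes in all. The study profiled RNA of KLS cells on 1-colour whole-transcript arrays. KLS cells are Kit positive, Sca-1 positive marrow cells without mature lineage markers, and they hold the stem cells and multipotent progenitors of the blood. Wild-type mice were represented by 3 arrays and Dnmt3a +/- mice by another 3, the latter with 1 copy of Dnmt3a disrupted, the gene of an enzyme that places new DNA methylation. The labels give no age, treatment or type of Dnmt3a allele, and nothing in them says that each array stands for a different animal. P-values therefore measure the spread between arrays, part of which may be technical. By its title, the study asks how the loss of 1 copy of Dnmt3a predisposes blood-forming cells to myeloid malignancy.

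SWI/SNF complexes use the energy of ATP to slide or eject nucleosomes and so open DNA at promoters and enhancers. Each complex holds 1 ATPase, either Smarca4 (also called Brg1) or Smarca2 (Brm). In the forms named BAF and PBAF, the core includes Smarcb1, Smarcc1, Smarce1 and a member of the Smarcd group. The form named BAF carries Arid1a or Arid1b, whereas the form named PBAF carries Arid2 and Pbrm1. In the blood system, Smarca4, Arid1a and Smarcd2 are known from mouse knockouts to be needed for normal stem cell function or granulocyte formation, and several subunit genes are mutated in human cancers.

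A gene's value is the mean log2 intensity of its probe sets above a filter on dim probe sets, and a difference is Dnmt3a+/- minus wild-type on that log2 scale. Dnmt3a itself read 8.51, 8.70 and 8.50 on the wild-type arrays and 8.38, 8.20 and 8.20 on the Dnmt3a+/- arrays, so the genotypes did not overlap. Its difference was -0.31 (SE 0.12; limma adjusted p over all genes = 0.631), with an exact two-sided permutation p of 0.1, the smallest that 3 against 3 arrays can give. Genotypes were separate on the lower side for 9.05% of all genes and 17.3% of those in the 3 brightest deciles of level. Dnmt3a lay at percentile 84.4 of level, and the median difference of all genes in that decile was -0.14. Marker genes were averaged over all their probe sets without the filter, and their percentiles are of array brightness among the 22103 genes named without it. A percentile places a gene's probe sets by brightness and does not measure its transcripts against those of another gene. Of 8 markers of KLS cells, 7 were measured, at percentiles 90.4 to 99.4, among them Kit and Ly6a, which encodes Sca-1. The measured markers of mature T, B and NK cells, macrophages and erythroid cells lay at percentile 48.5 or below. Of 4 erythroid markers only 1, Klf1, was measured. Differences among these markers ran from -0.18 for Klrb1c to 0.53 for Vcam1 and 0.71 for Cd79a. The 3 macrophage markers averaged 5.15 to 5.45 on the wild-type and 5.36 to 5.67 on the Dnmt3a+/- arrays. Of the 5 measured markers of the neutrophil series (6 listed), S100a8, S100a9 and Mpo were bright (percentile 99.7 or above), while Itgam lay at 79.9 and Ly6g at 9.2. Their differences ran both ways, with 0.43 for S100a8, 0.46 for S100a9 and 0.32 for Ly6g, against -0.40 for Itgam and -0.17 for Mpo. The 5 averaged 9.10 to 9.66 on the wild-type and 9.44 to 9.81 on the Dnmt3a+/- arrays, and B cell markers (2 of 3 measured) 4.89 to 5.58 and 5.34 to 5.88, so the ranges overlapped. The array that differed most from the rest was Dnmt3a+/- replicate 2: its correlations across genes averaged 0.904, against 0.938 to 0.949 for every other array. Gene values of the 10 members are given with and without that array.

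Promoters are described first, because Dnmt3a acts on CG dinucleotides, although no methylation was measured here. RefSeq promoter windows (GRCm38.p6, 250 bases before to 50 after the start) matched 8 of the 10 genes, with 2 windows for Arid1a. In 7 of the 8 genes the CG content was high, with an observed over expected ratio of 0.787 to 1.053. The median over all 32851 windows was 0.384, and 35.8% of windows exceeded a ratio of 0.6. The Smarcd2 window differed from the others, with 4 CG dinucleotides and a ratio of 0.177. That window, like those of Smarca2, Smarca4 and Arid1b, was not at the gene's outermost start in RefSeq. Other starts of Smarcd2 were not examined. The GC box GGGCGG, searched on both strands, occurred in all 8 matched genes and in 35.66% of all windows. The letters CCGGAAG of the ETS family occurred in Smarca2 and Smarcc1 (8.86% of all windows), and the E-box CACGTG occurred in Pbrm1 (7.15%). The GC box letters contain a CG dinucleotide, as do the other motifs searched, so these counts are not independent of the CG content. The 250 bases upstream of the start are printed for a BAF-only subunit, a PBAF-only subunit and a core subunit, 5′ to 3′ on the gene's strand, with CG dinucleotides in capitals. They lie at chr4:133756770-133757019 on the minus strand for Arid1a, at chr14:31018888-31019137 on the plus strand for Pbrm1 and at chr9:110131774-110132023 on the plus strand for Smarcc1.
Arid1a: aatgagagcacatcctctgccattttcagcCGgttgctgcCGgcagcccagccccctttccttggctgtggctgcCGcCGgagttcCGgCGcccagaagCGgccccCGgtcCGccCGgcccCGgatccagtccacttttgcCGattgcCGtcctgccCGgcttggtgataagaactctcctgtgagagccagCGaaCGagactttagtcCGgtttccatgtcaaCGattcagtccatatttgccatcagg
Pbrm1: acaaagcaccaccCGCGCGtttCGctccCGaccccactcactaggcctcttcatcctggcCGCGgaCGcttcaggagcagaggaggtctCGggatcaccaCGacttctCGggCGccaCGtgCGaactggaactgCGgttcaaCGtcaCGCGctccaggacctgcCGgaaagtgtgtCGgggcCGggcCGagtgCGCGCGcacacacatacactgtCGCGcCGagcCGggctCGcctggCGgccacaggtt
Smarcc1: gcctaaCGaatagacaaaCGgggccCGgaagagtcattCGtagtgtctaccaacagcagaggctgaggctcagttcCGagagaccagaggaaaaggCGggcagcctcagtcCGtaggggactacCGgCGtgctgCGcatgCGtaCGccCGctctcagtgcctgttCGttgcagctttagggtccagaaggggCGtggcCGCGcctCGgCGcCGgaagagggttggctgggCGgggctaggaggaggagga
These stretches hold 18, 31 and 21 CG dinucleotides, respectively.

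The mean of the Dnmt3a+/- arrays was below the wild-type mean for all 10 SWI/SNF genes, by small amounts. The log2 differences ran from -0.04 for Smarca2 to -0.28 for Smarce1, with a median of -0.17, and the folds ran from 0.973 to 0.824. Over all genes tested, 54.3% had a lower mean in Dnmt3a+/- cells and the median difference was -0.02. No member passed the test across all genes (limma, smallest adjusted p = 0.631 among the 10), and none had an unadjusted p under 0.05, where 4.57% of all genes had one on the lower side. Under other settings Arid2 and Smarce1 had one with array weights (6.66% of all genes on the lower side) and without wild-type replicate 1 (4.09%), and Smarcd2 had one with the median of probe sets (4.11%). In the same limma fit 0 of 20059 genes passed at adjusted p 0.05 and 1502 (7.49%) had an unadjusted p under 0.05. For 3 of the 10, Arid1a, Arid1b and Arid2, all Dnmt3a+/- arrays lay below all wild-type arrays. This was so for 9.05% of all genes and 17.3% of those in the top 3 deciles of level, where all 10 members lie. None of the 10 was higher on all Dnmt3a+/- arrays than on any wild-type array, as 6.74% of all genes were. In the top 3 deciles, 134 of 6018 genes were. In bulk RNA, fewer cells that carry a transcript and less of it per cell cannot be told apart.

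**Figure D1:**
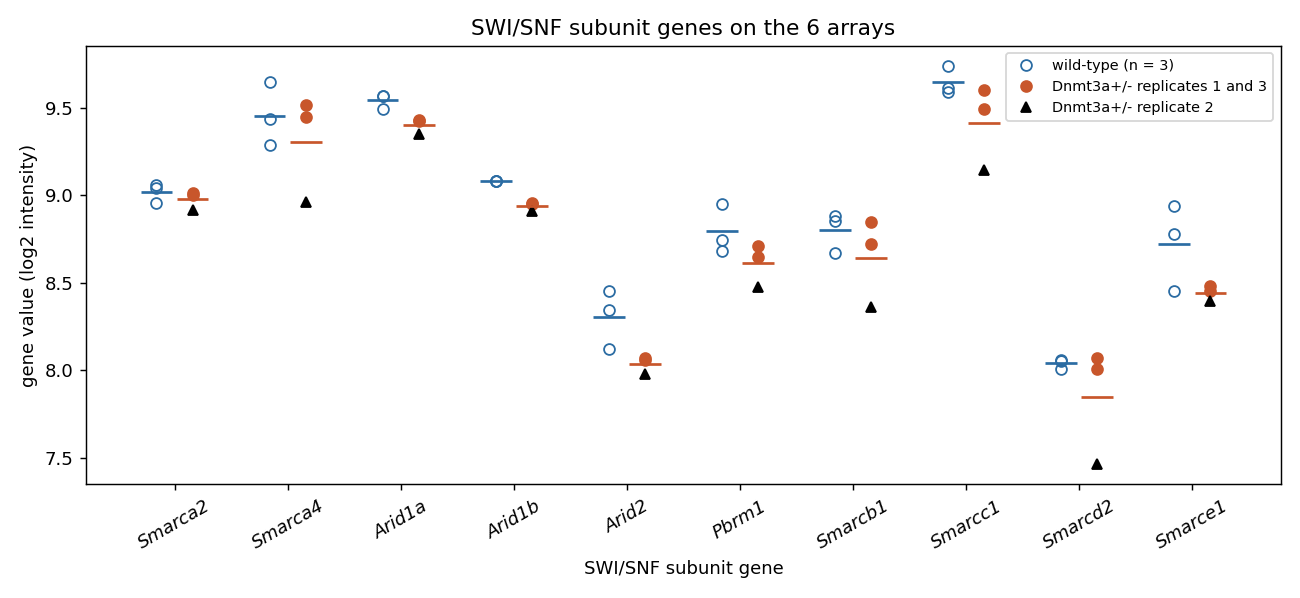
Gene values (log2 intensity) of the 10 SWI/SNF subunit genes on each of the 6 arrays, with open circles for wild-type, filled circles for Dnmt3a+/- replicates 1 and 3, triangles for Dnmt3a+/- replicate 2 and lines for the genotype means. The triangle is the lowest of the 6 points for all 10 genes, and the genotypes are fully separate for Arid1a, Arid1b and Arid2.

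Of the ATPases, Smarca2 was the member closest to no difference. It read 8.954, 9.057 and 9.042 on the wild-type arrays and 9.015, 8.917 and 9.003 on the Dnmt3a+/- arrays. The ranges overlapped, and the difference was -0.04 (SE 0.10, 95% interval -0.28 to 0.20; limma adjusted p = 0.901). Smarca4, the alternative ATPase, varied far more between arrays. Its wild-type values were 9.29, 9.65 and 9.44, and its Dnmt3a+/- values were 9.45, 8.96 and 9.51. Dnmt3a+/- replicates 1 and 3 lay within the wild-type range and only replicate 2 lay below it, so the difference of -0.15 (SE 0.17, 95% interval -0.55 to 0.25; limma adjusted p = 0.772) came from that array. Without it the difference of Smarca4 was 0.02 (SE 0.14) and that of Smarca2 was -0.01 (SE 0.11). The change of Smarca4 minus the change of Smarca2 was -0.11, with arrays of -0.01, -0.39 and 0.07 in Dnmt3a+/- cells relative to the wild-type mean and an SD of 0.13 in wild-type cells (n = 3). The exact two-sided permutation test gave p = 0.7 for this contrast, and 1 after Benjamini-Hochberg adjustment over the 2 contrasts computed.

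Arid1a and Arid1b, the alternative DNA-binding subunits of BAF, had nearly the same difference, and replicates that lay close together. Arid1a read 9.57, 9.57 and 9.49 in wild-type cells and 9.43, 9.35 and 9.43 in Dnmt3a+/- cells. The highest Dnmt3a+/- array was below the lowest wild-type array, and the difference was -0.14 (SE 0.10, 95% interval -0.37 to 0.09; limma adjusted p = 0.682). Arid1b read 9.08, 9.08 and 9.08 in wild-type cells and 8.96, 8.91 and 8.95 in Dnmt3a+/- cells. Its SD was 0.0020 among wild-type and 0.03 among Dnmt3a+/- arrays (n = 3 each), and its difference was -0.14 (SE 0.10, 95% interval -0.37 to 0.08; limma adjusted p = 0.672). The SE of limma is larger than these SDs because the test moves the spread of each gene towards that of all genes. For both genes the exact permutation p was 0.1, the smallest possible, which every gene with separate genotypes has with these 6 arrays. It thus adds nothing to the lack of overlap. Among the members whose genotypes overlapped it ran from 0.2 to 0.7. The change of Arid1a minus that of Arid1b was 0.0017, with an SD of 0.04 among the wild-type and 0.02 among the Dnmt3a+/- arrays (n = 3; exact permutation p = 1, and 1 after adjustment over the 2 contrasts). With the median of probe sets in place of their mean it was 0.11 (exact permutation p = 0.7). Without Dnmt3a+/- replicate 2 the genotypes of both genes were still separate, at -0.12 (SE 0.11) for Arid1a and -0.13 (SE 0.10) for Arid1b.

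Of the PBAF subunits, Arid2 was separate between the genotypes and Pbrm1 was not. Arid2, which takes the place of Arid1a or Arid1b in PBAF, read 8.12, 8.45 and 8.34 in wild-type cells and 8.06, 7.98 and 8.07 in Dnmt3a+/- cells. The genotypes did not overlap, though the gap between the lowest wild-type and the highest Dnmt3a+/- array was narrow, and the difference was -0.27 (SE 0.12, 95% interval -0.55 to 0.01; limma adjusted p = 0.631; exact permutation p = 0.1). Arid2 rested on 8 probe sets, the fewest of the 10 genes, of which 2 carry an older name of the gene. Without Dnmt3a+/- replicate 2 it stood at -0.24 (SE 0.13). Pbrm1, which reads acetylated histones through a row of bromodomains, read 8.68, 8.95 and 8.75 in wild-type cells and 8.71, 8.48 and 8.65 in Dnmt3a+/- cells. Here Dnmt3a+/- replicate 1 lay above the lowest wild-type array, and the difference was -0.18 (SE 0.12, 95% interval -0.47 to 0.10; limma adjusted p = 0.672). It was -0.12 (SE 0.13) without Dnmt3a+/- replicate 2 and -0.10 (SE 0.14) without wild-type replicate 2. As medians of 2 genes relative to the wild-type mean, the BAF-only pair stood at -0.12, -0.18 and -0.12 on the Dnmt3a+/- arrays and the PBAF-only pair at -0.17, -0.32 and -0.19. The wild-type arrays of the PBAF-only pair themselves ran from -0.15 to 0.15, so the lowest of them was close to 2 of the 3 Dnmt3a+/- arrays. The difference between the pairs was not tested.

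Among the core subunits, Smarce1, which binds DNA through an HMG domain, had the largest difference of the 10. It read 8.46, 8.94 and 8.78 in wild-type cells and 8.45, 8.40 and 8.48 in Dnmt3a+/- cells. The Dnmt3a+/- arrays lay close together, but wild-type replicate 1 fell among them, and the difference was -0.28 (SE 0.14, 95% interval -0.61 to 0.05; limma adjusted p = 0.631). Smarcc1, a scaffold subunit, read 9.59, 9.74 and 9.61 in wild-type cells and 9.50, 9.14 and 9.60 in Dnmt3a+/- cells, a difference of -0.24 (SE 0.14; limma adjusted p = 0.658). Smarcb1, the subunit lost in rhabdoid tumours, read 8.67, 8.88 and 8.86 in wild-type cells and 8.72, 8.36 and 8.85 in Dnmt3a+/- cells, a difference of -0.16 (SE 0.15; limma adjusted p = 0.727). Smarcd2, known for its need in granulocyte formation, read 8.06, 8.01 and 8.05 in wild-type cells and 8.07, 7.46 and 8.01 in Dnmt3a+/- cells, a difference of -0.19 (SE 0.17; limma adjusted p = 0.715). For Smarcd2 and Smarcb1 the 2 other Dnmt3a+/- arrays lay close to or within the wild-type range. Without Dnmt3a+/- replicate 2 the differences were -0.0004 (SE 0.11) for Smarcd2, -0.02 (SE 0.12) for Smarcb1, -0.10 (SE 0.11) for Smarcc1 and -0.26 (SE 0.16) for Smarce1. Smarce1 stood at -0.17 without wild-type replicate 2, and Smarcd2 at -0.50 (SE 0.22) when the median of its probe sets took the place of their mean.

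Dnmt3a+/- replicate 2 had the lowest value of the 6 arrays for all 10 members. It was the lowest array for 32.5% of all genes and for 56.9% of the 6018 genes in the top 3 deciles of level, where all 10 members lie. Wild-type replicate 2 was the highest array for 8 of the 10 members, against 19.1% of all genes and 32.1% of those in the top 3 deciles. As the median over the 10 members relative to each gene's wild-type mean, the wild-type arrays stood at -0.09, 0.09 and 0.01 and the Dnmt3a+/- arrays at -0.10, -0.33 and -0.08. Wild-type replicate 1 thus lay at about the level of Dnmt3a+/- replicates 1 and 3. Without Dnmt3a+/- replicate 2 the median difference of the members was -0.11, with 9 of 10 lower, where 51.5% of all genes and 65.4% of those in the top 3 deciles lay. Arid1a, Arid1b and Arid2 were again the 3 whose genotypes did not overlap, as was so on the lower side for 12.5% of all genes and 19.8% of those in the top 3 deciles. The mean level of the 7 KLS markers moved alongside, at 9.63, 9.74 and 9.62 on the wild-type arrays and 9.58, 9.47 and 9.62 on the Dnmt3a+/- arrays, and its part in the members' shift was not tested.

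The members' differences depended on the scaling between arrays. After cyclic loess, a scaling that removes trends of the difference with the level, the median over the 10 was -0.03 and the members ran from -0.15 for Arid2 to 0.10 for Smarca2. Their count on the lower side was still 9 of 10, where 49.2% of all genes lay, but the genotypes of Arid1a, Arid1b and Arid2 then overlapped. Smarca2 became the 1 member whose genotypes did not overlap (6.96% of all genes on that side), with Dnmt3a+/- arrays at 9.02, 9.14 and 8.98 and wild-type arrays at 8.94, 8.95 and 8.95. The gap was narrow, and the Smarca2 value includes a dim probe set, 4838652, that passed the filter through its Dnmt3a+/- values. Whether Smarca2 stays separate without that probe set was not tested. The members with the lowest values after cyclic loess were Arid2 (-0.15, SE 0.11), Smarce1 (-0.14, SE 0.13) and Smarcc1 (-0.11, SE 0.10), while Arid1a and Arid1b stood at -0.01 each (SE 0.10 for both). Dnmt3a+/- replicate 2 was then the lowest array for 4 of the 10, Smarca4, Smarcb1, Smarcc1 and Smarcd2, and the highest for Smarca2, Arid1a and Arid1b. Dnmt3a itself stood at -0.17 after this scaling.

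**Figure D2:**
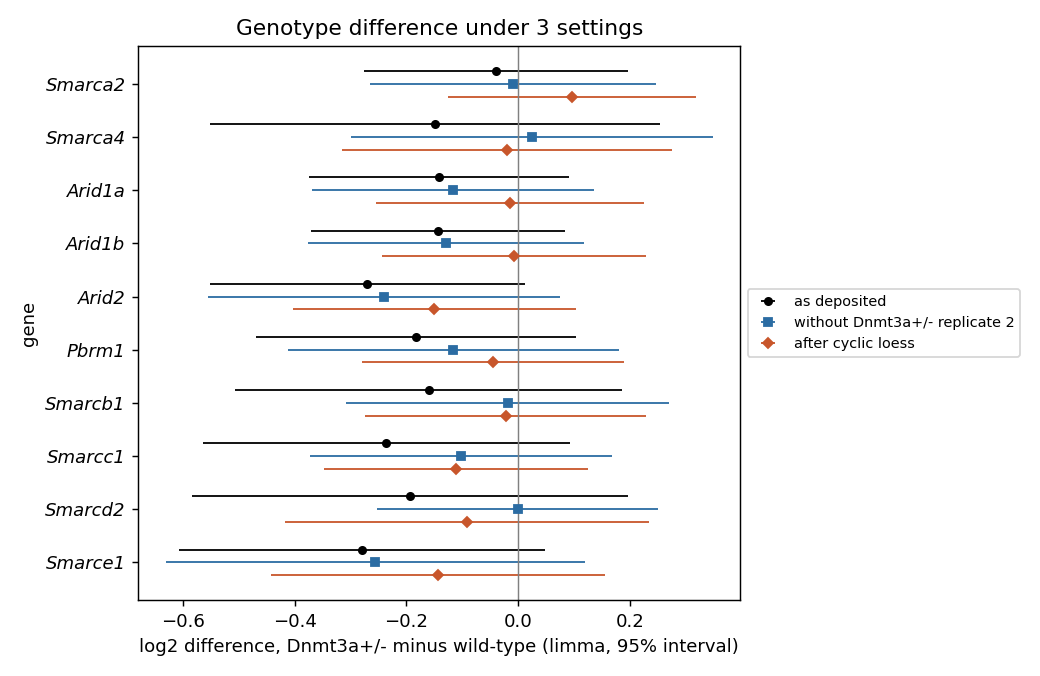
Log2 difference between Dnmt3a+/- and wild-type cells with its 95% interval (limma) for each SWI/SNF gene, with black circles as deposited, blue squares without Dnmt3a+/- replicate 2 and orange diamonds after cyclic loess. All intervals include 0, and the differences of Smarca4, Smarcb1 and Smarcd2 lie near 0 without that array.

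Among all genes the difference between genotypes changed with the level, and the members sit at its bright end. By the brightness of their probe sets above the filter, the 10 genes lay at percentiles 72.7 (Smarcd2) to 96.4 (Smarcc1) of level, with 2 in the eighth decile, 3 in the ninth and 5 in the tenth. All genes of these deciles had median differences of -0.12, -0.14 and -0.12, while the dimmest decile had a median of 0.08. In the top 3 deciles together, 77.6% of genes had a lower mean in Dnmt3a+/- cells and 17.3% were lower on every Dnmt3a+/- array. Against the middle 50% of genes of their own decile, Arid2 (-0.27 against a lower quartile of -0.23), Smarce1 (-0.28 against -0.24) and Smarcc1 (-0.24 against -0.21) lay below it, and the other 7 lay within it.

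**Figure D3:**
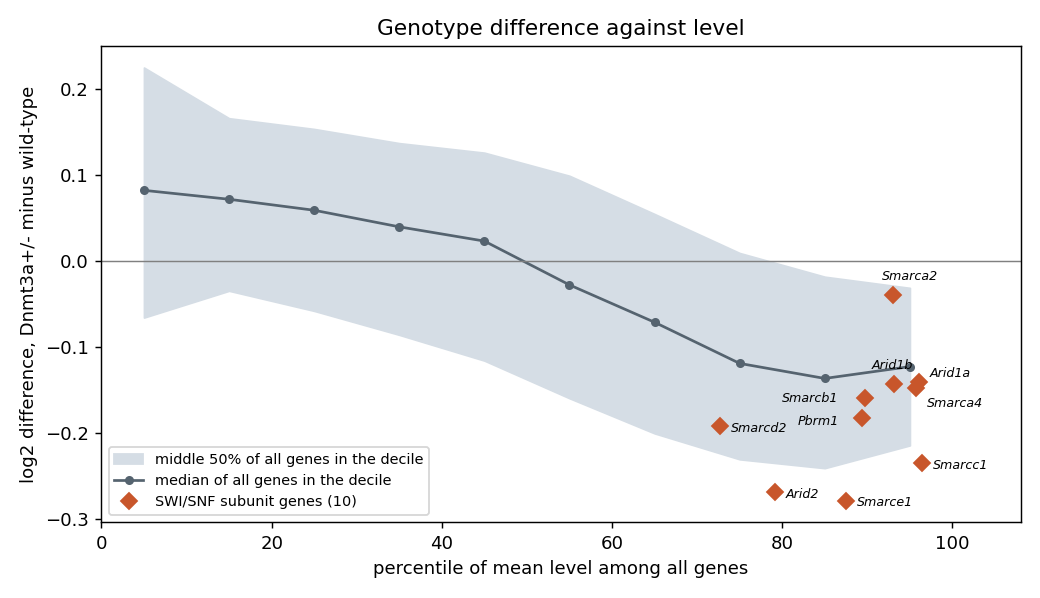
Log2 difference between Dnmt3a+/- and wild-type cells against the percentile of a gene's mean level, with the median (line) and the middle 50% (band) of all genes in each level decile and the 10 SWI/SNF genes as diamonds. The line passes from 0.08 in the dimmest decile to -0.12 in the brightest, and 7 of the 10 diamonds lie inside the band of their decile.

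The single probe sets show how much the difference varied among the probe sets of a gene. Their positions on the transcript were not used here. The members had 301 probe sets, 291 of them above the filter, and probe sets of 1 gene share their transcript and are not replicates of a genotype. Of the 291, 207 (71.1%) had a lower mean in Dnmt3a+/- cells, against 58% of all named probe sets above the filter. In 30 of them every Dnmt3a+/- array was below every wild-type array (7.62% of all named probe sets), and in 2 every Dnmt3a+/- array was above (4.27%). Shares for probe sets of equal level were not computed. Among genes, 77.6% of those in the top 3 deciles of level, where the members lie, had a lower mean. Arid2 had 7 of 8 probe sets on the lower side, Smarce1 13 of 16, Smarcc1 30 of 39, Pbrm1 30 of 39 and Smarcd2 13 of 17. Arid1a had 27 of 37, Smarcb1 11 of 16, Smarca4 27 of 40, Arid1b 20 of 30 and Smarca2 29 of 49. No probe set passed over all 628415 tested (limma, 0 at adjusted p 0.05), and of the 291, 3 had an unadjusted p under 0.05, against 5.84% of all named probe sets.

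Pbrm1 had the most probe sets whose genotypes did not overlap, 7, all lower in Dnmt3a+/- cells. The lowest of them, 4861915, read 10.42, 10.44 and 10.40 in wild-type cells and 10.20, 8.78 and 10.12 in Dnmt3a+/- cells, so most of its difference of -0.72 (SE 0.38) came from replicate 2. Smarce1 held both probe sets that were lower at an unadjusted p under 0.05 (limma). Probe set 4792181 read 8.56, 8.21 and 8.66 in wild-type cells and 7.66, 7.44 and 7.98 in Dnmt3a+/- cells, a difference of -0.78 (SE 0.22, limma adjusted p = 0.799). The other, 5233179, had the lowest difference of the gene at -0.94 (SE 0.39), while 4375449 was the highest at 0.28 (SE 0.35). Smarca2 held the only one on the higher side, 4838652, which read 5.64, 5.12 and 5.33 in wild-type cells and 5.99, 7.46 and 6.92 in Dnmt3a+/- cells. Its difference was 1.42 (SE 0.38, limma adjusted p = 0.799). This probe set is dim, its wild-type values lie below the filter of 5.89, and it passed the filter through its Dnmt3a+/- values. The lowest probe set of Smarca2, 4840801, stood at -0.77 (SE 0.34).

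The lowest and highest probe sets of the remaining genes were as follows. Smarca4 ran from -1.27 (SE 0.75) at 4685631, where Dnmt3a+/- replicate 2 read 6.87 and the other Dnmt3a+/- arrays 9.82 and 9.40, to 0.34 (SE 0.24) at 5057667. Arid1a ran from -0.68 (SE 0.44) to 0.33 (SE 0.23), and Arid1b from -0.55 (SE 0.29) to 0.19 (SE 0.41). Arid2 had the narrowest range, from -0.54 (SE 0.30) to 0.05 (SE 0.32). The highest probe set of Pbrm1 stood at 0.23 (SE 0.21). Smarcb1 ran from -0.95 (SE 0.47) to 0.32 (SE 0.29), Smarcc1 from -1.02 (SE 0.59) to 0.34 (SE 0.26) and Smarcd2 from -0.79 (SE 0.36) to 0.53 (SE 0.38). In every gene, single probe sets thus spanned both directions.

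**Figure D4:**
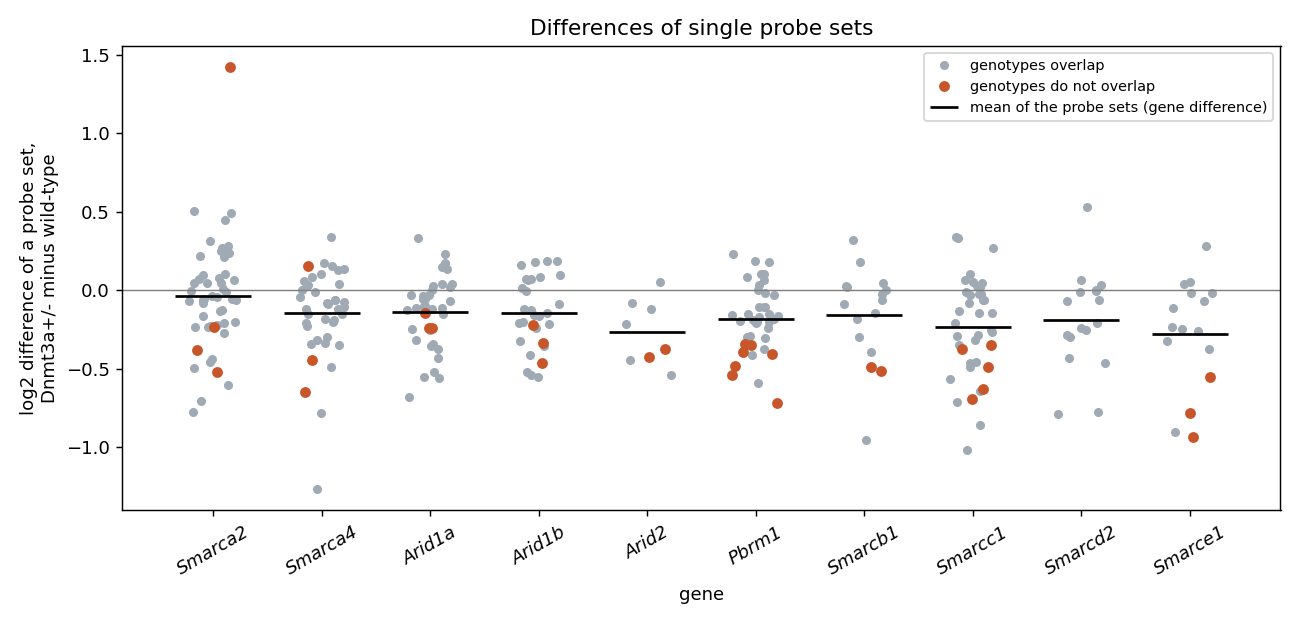
Log2 difference between Dnmt3a+/- and wild-type cells for each probe set above the filter (291 points) of the 10 SWI/SNF genes, with orange points where the genotypes do not overlap and a line at the gene's difference. In each gene the points spread on both sides of 0, and the highest point is the dim Smarca2 probe set at 1.42.

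Most other SWI/SNF subunits also had a lower mean in Dnmt3a+/- cells, and none passed. Of 18 listed, 17 were measured, 14 of them with a lower mean in Dnmt3a+/- cells and 3 with a higher one, with a median of -0.07. A lower mean was found for 54.3% of all genes and 77.6% of those in the top 3 deciles of level. Not all of these subunits lie in those deciles (Smarcd3 was at percentile 13.9). After cyclic loess 10 of the 17 had a lower mean, where 49.2% of all genes lay. In 4 of the 17 as deposited, Dpf2, Brd7, Brd9 and Bicra, every Dnmt3a+/- array was below every wild-type array (9.05% of all genes and 17.3% of those in the top 3 deciles of level). Brd7, a bromodomain subunit of PBAF, was the only one with an unadjusted p under 0.05 (limma; 4.57% of all genes on the lower side). It stood at -0.28 (SE 0.12, adjusted p = 0.631), or -0.23 (SE 0.12) without Dnmt3a+/- replicate 2. The highest value was 0.27 (SE 0.14) for Dpf3. Smarcc2, the partner of Smarcc1 in the core, stood at -0.26 (SE 0.16), with the genotypes overlapping, and at -0.09 (SE 0.12) without Dnmt3a+/- replicate 2. Dpf2, a reader subunit of BAF, stood at -0.24 (SE 0.11). Smarcd1 and Smarcd3, the alternatives to Smarcd2, stood at -0.14 (SE 0.15) and -0.06 (SE 0.14), or -0.05 and -0.04 without that array.

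The other families of ATP-dependent remodellers had medians close to that of the 10 SWI/SNF genes. ISWI genes had 9 of 11 on the lower side with a median of -0.15, CHD and NuRD genes 17 of 20 with -0.17, and genes of INO80, SRCAP and TIP60 20 of 21 with -0.18. A lower mean was found for 54.3% of all genes and 77.6% of those in the top 3 deciles of level. Genotypes did not overlap, with Dnmt3a+/- lower, for 5 of 11, 8 of 20 and 4 of 21 genes of these families. The shares were 9.05% of all genes and 17.3% of those in the top 3 deciles of level. For no gene of the 3 families were the genotypes separate on the higher side. No gene of any family passed over all genes (limma, smallest adjusted p = 0.631). An unadjusted p under 0.05 (limma) on the lower side occurred for 4.57% of all genes and 454 of the 6018 genes in the top 3 deciles. In ISWI, the genes with such a p-value were Baz2b (-0.31, SE 0.10) and Baz2a (-0.29, SE 0.11). In CHD and NuRD these were Chd3 (-0.38, SE 0.13), Chd2 (-0.37, SE 0.13), Chd1 (-0.36, SE 0.15), Mta3 (-0.29, SE 0.11) and Chd9 (-0.26, SE 0.11). In INO80, SRCAP and TIP60 they were Nfrkb (-0.38, SE 0.13), Vps72 (-0.34, SE 0.13) and Actr8 (-0.32, SE 0.14). Of these 10 genes, Baz2b (-0.26) and Chd3 (-0.29) had an unadjusted p under 0.05 (limma) without Dnmt3a+/- replicate 2. On the lower side, 206 of the 6018 genes in the top 3 deciles had one in that fit. The rest of these genes then stood at -0.32 (Chd2), -0.29 (Nfrkb), -0.28 (Actr8), -0.25 (Mta3), -0.24 (Baz2a), -0.23 (Chd1 and Vps72) and -0.21 (Chd9). After cyclic loess the medians of the 3 families were -0.02, -0.04 and -0.10, and that of the other SWI/SNF subunits was -0.05, against -0.03 for the 10. On the lower side then lay 7 of 11, 11 of 20 and 14 of 21 genes of the families (49.2% of all genes, 51.5% of the top 3 deciles). Genotypes were separate on that side for 2, 5 and 3 of them (6.46% of all genes, 7.03% of the top 3 deciles). On the higher side they were separate for 1 gene of CHD and NuRD (6.96% of all genes). Without Dnmt3a+/- replicate 2 the medians of the families were -0.05, -0.04 and -0.12, and -0.04 for the other SWI/SNF subunits, against -0.11. On the lower side then lay 7 of 11, 11 of 20 and 17 of 21 genes of the families (51.5% of all genes, 65.4% of the top 3 deciles). Genotypes were separate on that side for 5, 8 and 4 of them (12.5% and 19.8%). On the higher side they were separate for 2 genes of CHD and NuRD and 1 of INO80, SRCAP and TIP60 (297 of the 6018 genes in the top 3 deciles).

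**Figure D5:**
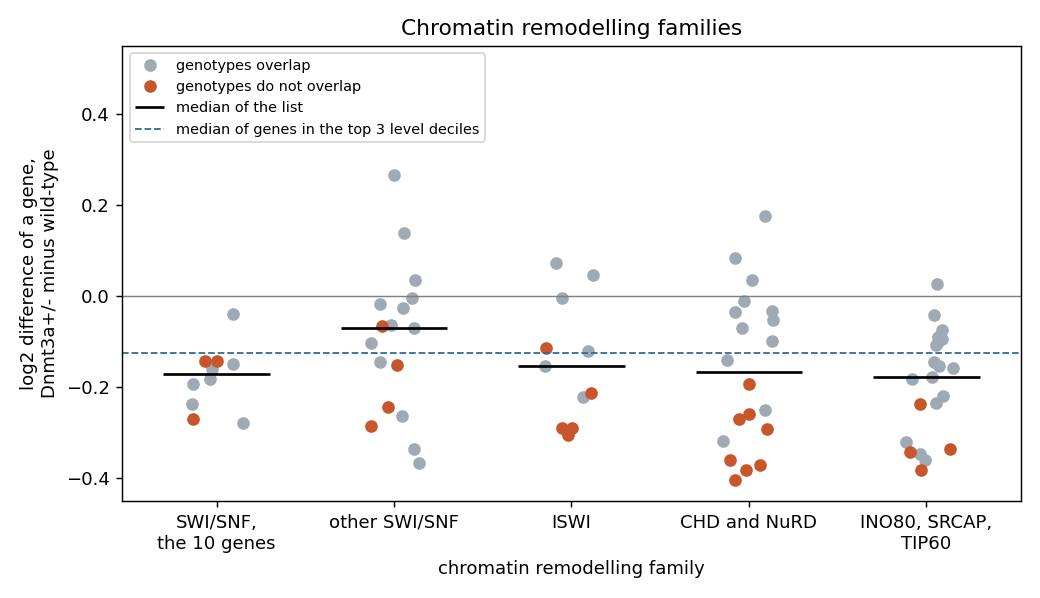
Log2 difference between Dnmt3a+/- and wild-type cells for each gene of 5 lists of chromatin remodelling genes, with orange points where the genotypes do not overlap, a black line at the list's median and a dashed line at the median of all genes in the top 3 deciles of level (-0.13). The medians of the 10 SWI/SNF genes and of the other 3 remodeller families lie between -0.15 and -0.18, and that of the other SWI/SNF subunits is -0.07.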

How the data were processed

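The authors deposited 1 table of normalized intensity values for 1256831 probe sets on 6 arrays. Per the submitters' processing notes it was made with RMA (background correction, quantile normalization and probe summary) in Partek, with versions and settings not given in the sources used here. The deposited intensity values ran from 1.84 to 22239 and were linear, so log2 was taken with no pseudocount. Quantile normalization hides a change shared by most genes. Per the labels' protocols, total RNA was amplified as whole-transcript cDNA and labelled with biotin. Precision is limited by the number of arrays, which have no counting depth.

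Probe sets with exactly 1 gene symbol in the platform annotation (318760) were named, with older symbols updated through the RefSeq table of GRCm38.p6. For each gene, log2 values were averaged over its probe sets whose mean exceeded the median of all such means (5.89), which kept 20059 genes. The genotype test used lmFit and eBayes of limma 3.58.1 (R 4.3.3) with no covariate and Benjamini-Hochberg adjustment over all genes, with the same fit on 628415 probe sets, and with exact permutation tests over arrays. The fit was tested on simulated data. Promoter windows were read from the RefSeq promoter table. The protein features in the plan were not analysed here.

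All 10 members are named with values. Other genes are named where their unadjusted p was under 0.05 (limma). Dpf2, Brd9, Bicra, Dpf3, Smarcc2, Smarcd1 and Smarcd3 were picked with their values in view. The members and lists were chosen with earlier results of these data known. The alternatives were another filter (none, or the 75th percentile), the median of probe sets, a second quantile normalization, cyclic loess, log2(value + 16), a variance trend with robust estimation, array weights, a replicate block and leaving out each array.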

Additional observations from a re-analysis of the deposited data

How the results depend on the processing

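In each of the 15 alternatives 0 genes passed at adjusted p 0.05 (limma), and 9 or 10 of the 10 SWI/SNF genes had a lower mean in Dnmt3a+/- cells. The direction turned for Smarca2 after a second quantile normalization (0.081) and cyclic loess (0.097), for Smarcb1 with the median of probe sets (0.048), and for Smarca4 without Dnmt3a+/- replicate 2 (0.025; -0.25 to 0.025 over the arrays left out). For the other 7 genes the direction held in every alternative, but the size did not. Smarcd2 ran from -0.50 with the median of probe sets (unadjusted p 0.0469) to -0.0004 without Dnmt3a+/- replicate 2, and was -0.035 with array weights. Arid2 and Smarce1 had an unadjusted p under 0.05 with array weights (0.0225 and 0.0264) and without wild-type replicate 1 (0.0205 and 0.0129). The members' smallest adjusted p over the alternatives was 0.35 (limma). The median of the 10 moved to -0.034 after cyclic loess, and was -0.26 to -0.11 with 1 array left out. The count of members whose genotypes did not overlap went from 3 to 1 after either rescaling. That 1 was Smarca2, with Dnmt3a+/- higher, whose value includes the dim probe set that passed the filter through its Dnmt3a+/- values. With 1 array left out the count ran from 3 to 8. It was 8 without wild-type replicate 1 (17.2% of all genes on the lower side), 5 without Dnmt3a+/- replicate 1 (15.8%) or 3 (16.3%), and 3 without any other array. Genes with an unadjusted p under 0.05 numbered 2593 with array weights and 925 to 1928 with 1 array left out, with 925 without wild-type replicate 2 and 989 without wild-type replicate 3. The change of Arid1a minus that of Arid1b was 0.11 with the median of probe sets, 0.050 with no filter, -0.014 after a second quantile normalization and -0.0073 after cyclic loess, and -0.024 to 0.015 with 1 array left out. The change of Smarca4 minus that of Smarca2 ran from -0.20 to 0.034, the latter without Dnmt3a+/- replicate 2. Same-numbered arrays did not deviate together (correlations across genes of -0.05, -0.09 and 0.11). With 3 arrays per genotype this cannot exclude a pairing of the samples, and the labels do not state whether the numbers pair them. With the replicate block 1274 genes had an unadjusted p under 0.05, the members' adjusted p-values were 0.714 or above, and no call changed. The signal over background of single probe sets is not known here, which limits what can be said of dim ones.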
